A study of Mus musculus with 60 samples.

Results

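The genes described here are 30 components of the machinery that releases neurotransmitter from synaptic vesicles, read in RNA-seq of mouse prefrontal cortex. They are the rows of the deposited table whose Ensembl identifiers carry the symbols of a list of vesicle, active zone and fusion genes, and 30 of the 30 symbols matched 1 identifier each among the 18088 rows. All 30 passed the filter on low values, among 17781 genes tested. Of 50 other presynaptic genes on a second list, 50 were tested.

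Prefrontal cortex came from C57BL/6J mice killed at postnatal day 25. Vehicle, fluoxetine (a serotonin reuptake inhibitor) or lithium (a mood stabiliser) reached the pups through their mother's milk for 3 weeks, from day 3 to day 24. The mice were wild type (WT) or heterozygous for the K228E allele of Tbr1 (Tbr1+/K228E, here HT), which changes 1 residue of TBR1, a DNA-binding regulator of layer 6 projection neurons, and is carried in every cell. Each combination of genotype (WT or HT), treatment (vehicle, fluoxetine or lithium) and sex holds 5 libraries, which makes 12 groups and 60 libraries. No label ties a mouse to a litter, dam or batch. Littermates in a group would share a dosed mother, and every p-value is about the spread among these particular samples, which may be technical.

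Transmitter release runs on a cycle. Vesicles are filled with transmitter by a transporter, held in clusters by synapsins, and brought to the active zone, where RIM, Bassoon, Piccolo and ELKS scaffolds and Munc13 prepare them for fusion. The SNARE proteins synaptobrevin, syntaxin and SNAP-25 then join the membranes when synaptotagmin binds calcium, under the control of complexins, after which NSF takes the SNARE complex apart and dynamin helps to recover the membrane.

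Values are reads divided by the size factor of the library, called normalised reads below, from libraries of 23930164 to 36515331 reads (median 28721151). Tbr1, which also marks deep-layer cortical neurons, was read at 845 to 5241 across the 60 libraries, and since the table does not separate alleles, its level does not check the genotype labels. The libraries differ in 7 markers of the olfactory bulb, the structure in front of the dissected region (Cdhr1, Doc2g, Eomes, Shisa3, Tbx21, Th and Trh). Their summed level was 6287 to 22899 in WT vehicle females and 244 to 2058 in WT fluoxetine females, and 364 to 23854 and 161 to 1397 in the HT females of the same treatments. It was 1268 to 15813 in WT and 673 to 9720 in HT lithium females. No marker of the list was at 0 in any library; the lowest value was that of Eomes and Tbx21 at 1.1. On the second principal component of all genes (9.46% of the variance), the 10 vehicle males lay at -47.9 to -17.8 and the other 50 libraries at -12.5 to 32.0. Average-linkage clustering into 4 put 9 of them together with no other library and 1, WT replicate 4, alone. In males a drug effect and this separation cannot be told apart, so females are described first and apart.

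Per kilobase of all annotated exons combined, a scale that allows a rough comparison of levels between genes, the 30 genes spanned a wide range. The transcripts present can be shorter than that length (10167 bases for Vamp1, 3809 for Vamp2), in which case the value of the gene is too low. Averaged over the 12 group means, Slc17a7, which loads glutamate into vesicles of cortical neurons, was the highest at 9016 normalised reads per kilobase. It was followed by the SNARE gene Snap25 at 8605, the vesicle protein synaptophysin (Syp) at 8166, Vamp2 at 8084 and Cplx1 at 7687. The lowest were Vamp1 at 220.3, Erc1 at 156, Slc17a6, the glutamate loader typical of thalamic and olfactory bulb projection neurons, at 112, and Syt2, a calcium sensor of fast-spiking interneurons, at 89.7. Paralogs were far apart for Slc17a7 and Slc17a6, Vamp2 and Vamp1, and Syt1 (5918) and Syt2. They were closer for Cplx1 and Cplx2 (5830.3) and for Sv2a (3147) and Sv2b (2179).

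The question in females is whether the level of these genes differs with either drug and with genotype. In WT females 25 of the 30 genes were higher and 1 was lower under fluoxetine than under vehicle (limma, adjusted p below 0.05). Of all 17781 genes, 39.8% were called in that comparison, 20.9% higher and 19.0% lower. The median log2 fold change of the 30 was 0.39, against 0.0065 over all genes. The gene that fell was Slc17a6, and the 4 not called were Sv2a, Cplx1, Vamp2 and Erc1. In 22 of the 30 the 5 fluoxetine libraries lay above all 5 vehicle libraries, which 15.6% of all genes also did, and in 1 they lay below, as did 13.5% of all genes. The fluoxetine group had the smaller SD for 30 of the 30. The share of all genes with a smaller SD was not computed, so this is not read as a trait of the 30. In bulk tissue fewer cells of a type and less RNA per cell cannot be told apart. The result rests in part on 1 library: without replicate 3 of the WT vehicle females, which had the highest bulb markers of that group, 10 genes were called (9 higher, 1 lower; 24.2% of all genes). Quantile normalization called 14 higher and 4 lower (39.1% of all genes), the latter being Slc17a6, Sv2a (-0.23), Vamp2 (-0.15) and Cplx1 (-0.27), with Rab3a (-0.013) and Syt7 (-0.011) just below 0 and not called, and it lowered the median of the 30 to 0.14.

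**Figure D1:**
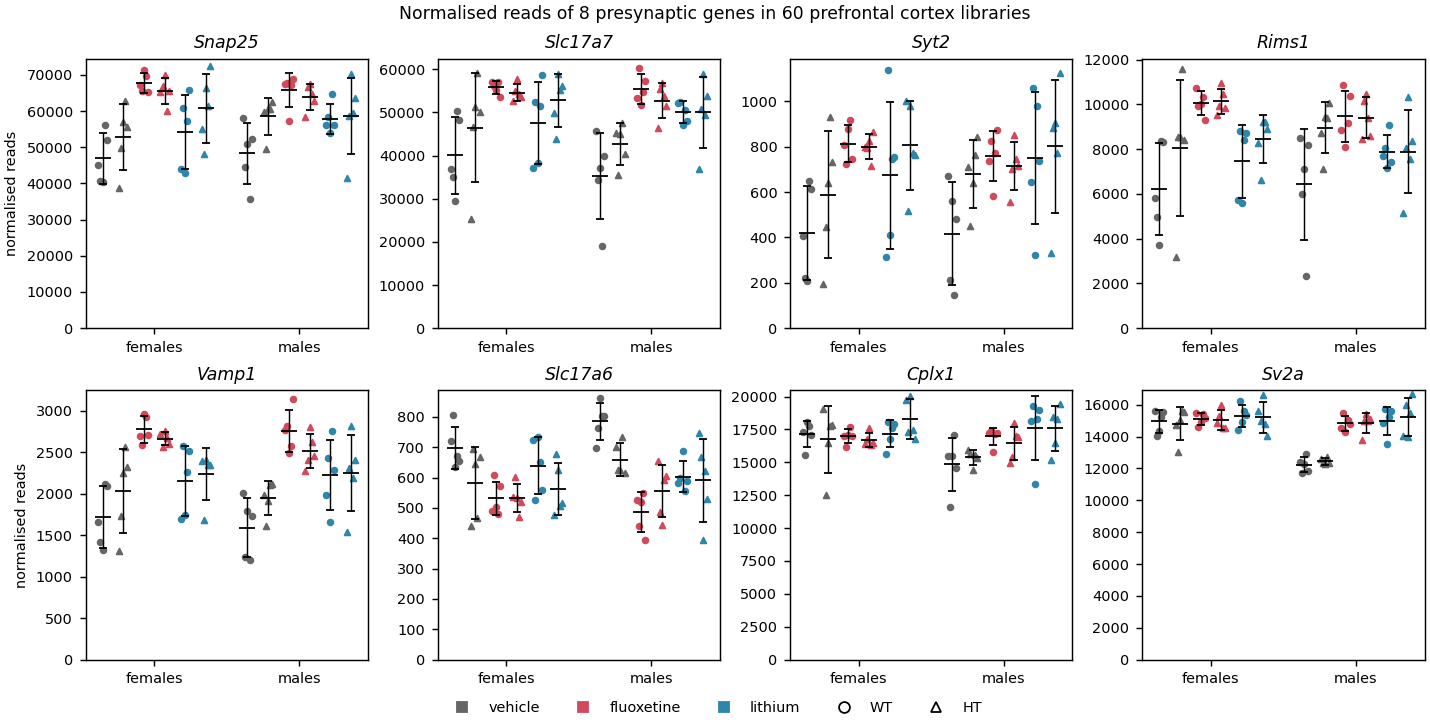
Normalised reads (linear axis from 0) of 8 of the 30 genes in all 60 libraries, by sex, treatment (colour) and genotype (circle WT, triangle HT); points are libraries, bars the mean and SD of 5. In females Snap25, Slc17a7, Syt2, Rims1 and Vamp1 stood above all WT vehicle females in every WT fluoxetine female, Slc17a6 stood below, and Cplx1 and Sv2a overlapped in females.

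Among proteins of the vesicle membrane, the SV2 pair parted. SV2 proteins are transporter-like glycoproteins of the vesicle that regulate release. Sv2b (ENSMUSG00000053025, chromosome 7, 75114894 to 75309262, minus strand, GRCm38) read 11854, 10832, 8088, 17925 and 16749 in the 5 WT vehicle females and 22342, 21651, 23994, 21853 and 20918 in the 5 WT fluoxetine females. The fluoxetine libraries were all above the widely spread vehicle libraries, a log2 fold change of 0.82 (SE 0.24, limma adjusted p = 0.00769). Sv2a (ENSMUSG00000038486, chromosome 3, 96181151 to 96195521, plus strand) read 15635, 14049, 14377, 15245 and 15577 under vehicle and 15509, 14604, 14909, 15393 and 15172 under fluoxetine. The groups overlapped throughout, and the log2 fold change was 0.014 (SE 0.048, limma adjusted p = 0.832). Synaptophysin (Syp), an abundant vesicle protein, read 36011, 32204, 30148, 43913 and 41658 under vehicle and 48409.5, 46360.0, 46660.1, 46518 and 44674 under fluoxetine. Its groups did not overlap, with a log2 fold change of 0.35 (SE 0.11, limma adjusted p = 0.0105). Synaptogyrins are relatives of synaptophysin. Syngr1 read 17793, 16121, 14824, 22066 and 21291 under vehicle and 25035, 23682, 24225, 24418 and 22398 under fluoxetine. Its groups were apart, with a log2 fold change of 0.40 (SE 0.13, limma adjusted p = 0.0129). The neuronal form Syngr3 read 4369.9, 4189, 4144, 5108 and 4697 under vehicle and 5271, 5044, 5056, 5143 and 4985 under fluoxetine. Here the groups overlapped and the fluoxetine libraries were close together, with a log2 fold change of 0.18 (SE 0.067, limma adjusted p = 0.0248). Synapsins tether vesicles in the reserve pool. Syn1 read 18389, 15456, 12612, 23315 and 21403 under vehicle and 23045, 22675, 22102, 24578 and 23254 under fluoxetine. The groups overlapped at their edges, with a log2 fold change of 0.38 (SE 0.14, limma adjusted p = 0.0315). Syn2 read 14877, 14921, 12429, 17039 and 17026 under vehicle and 18764, 18477, 18138, 18486 and 17722 under fluoxetine. These libraries were apart by treatment, with a log2 fold change of 0.27 (SE 0.10, limma adjusted p = 0.0260).

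The SV2 genes, Cplx1 and Slc17a6 can be set beside the sequence before their transcription start. Of the 30 genes, 24 matched the RefSeq promoter table (GRCm38.p6), whose windows hold 250 bases before and 50 after a start. Where a gene had several starts (4 for Sv2b, 2 for Slc17a6), the 1 nearest the annotated gene start was used. It lay within 100 bases of that start in 20 genes, and 68793 bases away for Cplx2. In 17 genes the bases after it were found in an annotated transcript. The stretches below are shown because Sv2b rose, Sv2a and Cplx1 were not called and Slc17a6 fell; each ends before the start of transcription, 5′ to 3′ on the strand of the gene. Capitals mark matches to a GC box (GGGCGG, or CCGCCC on the other strand) or a TATA box (TATAAA, or TTTATA on the other strand).
Sv2b, chr7:75309263-75309512, minus strand: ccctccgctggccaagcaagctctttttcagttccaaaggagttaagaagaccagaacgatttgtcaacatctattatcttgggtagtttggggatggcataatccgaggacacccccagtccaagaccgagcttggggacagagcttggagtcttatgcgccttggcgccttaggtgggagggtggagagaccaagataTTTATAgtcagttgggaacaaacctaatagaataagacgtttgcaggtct
Sv2a, chr3:96180977-96181150, plus strand: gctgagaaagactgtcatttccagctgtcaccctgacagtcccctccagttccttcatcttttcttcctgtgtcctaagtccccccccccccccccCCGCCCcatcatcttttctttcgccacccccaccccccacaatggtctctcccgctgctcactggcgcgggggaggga
Cplx1, chr5:108550028-108550277, minus strand: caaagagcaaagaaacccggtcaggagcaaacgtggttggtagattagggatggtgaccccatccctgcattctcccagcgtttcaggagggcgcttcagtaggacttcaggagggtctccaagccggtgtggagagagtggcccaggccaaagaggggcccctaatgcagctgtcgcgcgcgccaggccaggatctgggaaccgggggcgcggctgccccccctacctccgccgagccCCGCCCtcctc
Slc17a6, chr7:51621580-51621829, plus strand: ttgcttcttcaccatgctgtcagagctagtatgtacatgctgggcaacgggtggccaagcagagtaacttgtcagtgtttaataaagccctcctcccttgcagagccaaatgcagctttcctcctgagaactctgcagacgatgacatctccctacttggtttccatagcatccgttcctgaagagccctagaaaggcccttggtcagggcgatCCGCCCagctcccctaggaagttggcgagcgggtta
A GC box stood in the windows of 19 of the 24 genes (79.2%), against 35.7% of the 32851 windows of the table. In Sv2b it lies after the start, outside the stretch shown. A TATA box was present in 1 of the 24 (Sv2b, 4.17%) and in 13.6% of all windows; with no letter in common, the GC and TATA boxes cannot overlap. The cAMP response element TGACGTCA, which reads the same on both strands, was present in 1 (Syn1) against 1.79%, and the T-box motif TCACACCT (AGGTGTGA on the other strand), which can share the letters TCA with it, in 0 of 24 against 1.28%. Median GC content was 64.8% in the 24 windows and 52.7% in all. GC boxes were found in genes that rose, in Sv2a and Cplx1, which were not called, and in Slc17a6, which fell.

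In the active zone the 2 RIM genes, scaffolds that tether vesicles and calcium channels, differed in size of change. Rims1 (ENSMUSG00000041670, chromosome 1, 22286251 to 22805994, minus strand) read 5822, 4972, 3693, 8356 and 8305 under vehicle and 10721, 9924, 9999, 10318 and 9290.4 under fluoxetine. No vehicle library reached the lowest fluoxetine library, and the log2 fold change was 0.76 (SE 0.23, limma adjusted p = 0.0102). Rims2 read 2817, 2825, 2593, 3135 and 3038 under vehicle and 3306, 3275, 3391, 3369.8 and 3183 under fluoxetine. These groups lay close together without overlapping, with a log2 fold change of 0.20 (SE 0.061, limma adjusted p = 0.00911). Bassoon and Piccolo are giant scaffolds that organise the active zone and the vesicle cluster behind it. Bsn read 16702, 14528, 10711, 20786 and 20964 under vehicle and 24213, 22575, 23304, 24456 and 23022 under fluoxetine. Its fluoxetine libraries were all higher, with a log2 fold change of 0.53 (SE 0.17, limma adjusted p = 0.0125). Pclo read 8451, 7336, 5275, 10231 and 10026 under vehicle and 12219, 10723, 12224, 11805 and 12267 under fluoxetine. It was likewise apart, with a log2 fold change of 0.56 (SE 0.15, limma adjusted p = 0.00523). ELKS scaffolds bind RIM and Bassoon. Of these, Erc2 read 4128, 4222, 3664, 5483 and 5207 under vehicle and 6073, 5896, 6513, 5869 and 6064 under fluoxetine, apart in every library, with a log2 fold change of 0.44 (SE 0.13, limma adjusted p = 0.00853). Erc1, whose groups overlapped at 1974 to 2762 and 2572 to 2746, had a log2 fold change of 0.17 (SE 0.086, limma adjusted p = 0.114).

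All 4 genes of priming and of the Rab3 cycle were higher, with Rab3a at -0.013 and not called after quantile normalization. Rph3a (rabphilin, an effector that binds Rab3 on the vesicle; ENSMUSG00000029608, chromosome 5, 120940499 to 121010092, minus strand) read 10854, 8909, 6099, 16143 and 14487 under vehicle and 19779, 18878, 18949, 19504 and 17598 under fluoxetine. Its vehicle libraries spread widely below a narrow fluoxetine group, and the log2 fold change was 0.83 (SE 0.27, limma adjusted p = 0.0137). Doc2a, a high-affinity calcium sensor linked to spontaneous and asynchronous release, read 1174, 1025, 879, 1511 and 1439 under vehicle and 1874, 1798, 1704, 1863 and 1727 under fluoxetine. The groups were apart, with a log2 fold change of 0.60 (SE 0.17, limma adjusted p = 0.00625). Munc13-1, encoded by Unc13a, makes docked vesicles ready to fuse. Unc13a read 14457, 13267, 10989.6, 16329.6 and 16449.5 under vehicle and 18782, 17957, 16767, 18603 and 17295 under fluoxetine. All fluoxetine libraries were higher, with a log2 fold change of 0.34 (SE 0.11, limma adjusted p = 0.0137). The vesicle GTPase Rab3a read 14641, 13093, 13780.1, 17371 and 16311 under vehicle and 17985, 17569.6, 17283, 18316 and 17351 under fluoxetine. These ranges overlapped, with a log2 fold change of 0.24 (SE 0.076, limma adjusted p = 0.011).

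The SNARE genes held both a clear rise and a member that was not called. Snap25 (ENSMUSG00000027273, chromosome 2, 136713453 to 136782428, plus strand), the plasma membrane SNARE, read 45008, 40808, 40365, 56205 and 52112 under vehicle and 67189, 65464, 71227, 69742 and 65229.6 under fluoxetine. All fluoxetine libraries lay above all vehicle libraries, and the log2 fold change was 0.54 (SE 0.12, limma adjusted p = 0.00129). Vamp1 (ENSMUSG00000030337, chromosome 6, 125215551 to 125245964, plus strand), the synaptobrevin of fast-spiking and motor pathways, read 1657, 1421, 1318, 2122 and 2098 under vehicle and 2695, 2585, 2965, 2923 and 2712 under fluoxetine. The groups were apart, and the log2 fold change of 0.71 (SE 0.15, limma adjusted p = 0.000874) had the smallest adjusted p of the 30. Vamp2, the main synaptobrevin of forebrain synapses, read 29251, 27247, 27282, 33025 and 30769 under vehicle and 30669, 30413, 32439, 31588 and 32623 under fluoxetine. Its groups overlapped, with a log2 fold change of 0.10 (SE 0.062, limma adjusted p = 0.198). Syntaxin-1A (Stx1a) read 7998, 7290.3, 5779, 10679 and 10181 under vehicle and 12942, 13508, 12235, 13231 and 11382 under fluoxetine. It was apart in every library, with a log2 fold change of 0.63 (SE 0.21, limma adjusted p = 0.0155). NSF is the ATPase that frees SNAREs for reuse, and dynamin 1 cuts vesicles from the membrane in endocytosis. Nsf read 21214, 19342, 17583, 25683 and 24925 under vehicle and 28449, 27209, 28506, 27633 and 28075 under fluoxetine. Treatments were apart, with a log2 fold change of 0.38 (SE 0.10, limma adjusted p = 0.0046). Dnm1 read 33399, 29009, 26071, 40487 and 39682 under vehicle and 45018, 43388, 42941, 45572 and 42616 under fluoxetine. Again no vehicle library reached the fluoxetine range, a log2 fold change of 0.40 (SE 0.12, limma adjusted p = 0.00794).

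Calcium sensors and complexins held the gene with the largest log2 fold change of the 30 and, with Cplx1, a gene close to 0. Syt2 (ENSMUSG00000026452, chromosome 1, 134646677 to 134762593, plus strand), the fast sensor of parvalbumin interneurons and of many brainstem synapses, read 408, 219.8, 207, 648 and 613 under vehicle and 808, 724, 877, 916 and 743 under fluoxetine. The vehicle libraries fell into a low pair, an intermediate and a higher pair, all below fluoxetine, and the log2 fold change was 1.11 (SE 0.36, limma adjusted p = 0.0135). Syt1, the fast sensor of forebrain excitatory synapses, read 41620.1, 38576, 35098, 49684 and 49596 under vehicle and 55694, 51490.5, 57656, 55907 and 54488 under fluoxetine. It was apart in every library, with a log2 fold change of 0.37 (SE 0.12, limma adjusted p = 0.0108). Syt7, a slow high-affinity sensor, read 11668, 12691, 10306, 13182 and 13388 under vehicle and 14596, 14909, 13514, 14277 and 13747 under fluoxetine. The groups lay close together without overlap, with a log2 fold change of 0.22 (SE 0.084, limma adjusted p = 0.0338). Complexins bind the SNARE complex and both clamp and promote fusion. Cplx2 (ENSMUSG00000025867, chromosome 13, 54371349 to 54383917, plus strand) read 20351, 19116, 15728, 28378 and 26736 under vehicle and 34740.0, 34421, 35928, 36356 and 33047 under fluoxetine. It was apart in every library, with a log2 fold change of 0.69 (SE 0.19, limma adjusted p = 0.00407). Cplx1 (ENSMUSG00000033615, chromosome 5, 108518554 to 108550024, minus strand) read 17272, 15567, 18083, 17771 and 17084 under vehicle and 17039, 16166, 17050.1, 17660.1 and 16971 under fluoxetine. The fluoxetine libraries lay inside the vehicle range, and the log2 fold change was -0.014 (SE 0.085, limma adjusted p = 0.914).

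The glutamate loaders moved in opposite directions. Slc17a7 (VGLUT1; ENSMUSG00000070570, chromosome 7, 45163949 to 45176142, plus strand) read 36949, 35122, 29368, 50382 and 48283 under vehicle and 56989.9, 56134, 55227, 57051 and 53588 under fluoxetine. The fluoxetine libraries were all higher, with a log2 fold change of 0.51 (SE 0.16, limma adjusted p = 0.0116). Slc17a6 (VGLUT2; ENSMUSG00000030500, chromosome 7, 51622006 to 51671119, plus strand) read 721, 806, 635, 672 and 655 under vehicle and 491, 609, 505, 481 and 571 under fluoxetine. Here the fluoxetine libraries were all lower, with a log2 fold change of -0.39 (SE 0.13, limma adjusted p = 0.0131).

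Markers of cell types and neighbouring tissue differed between the same groups. All 7 bulb markers were lower under fluoxetine in WT females (limma), and the mean log2 bulb marker value was 9.13 to 10.89 under vehicle and 4.07 to 7.37 under fluoxetine. Of 8 markers of cortical excitatory neurons 5 were higher and 0 lower, with the mean log2 value at 9.40 to 10.57 and 10.69 to 10.83. Of 7 pan-neuronal markers 5 were higher and 0 lower, at 13.46 to 13.93 and 13.98 to 14.04 on the same scale. Of 6 markers of the meninges 6 were lower, and of 12 striatal markers 3 were lower. Of 5 markers of inhibitory neurons, not all of them specific to parvalbumin interneurons, 2 were higher (Pvalb, Lhx6) and 2 lower (Gad1, Gad2). Of 5 astrocyte markers 3 were lower, of 6 choroid plexus markers 2 were lower, of 5 microglial markers 2 were higher, of 6 thalamic markers 1 was higher and 2 were lower, and of 5 oligodendrocyte markers 0 were called. Their part in the result was not tested, except for the bulb, striatum and choroid plexus markers. The level of the 30 genes was set against the bulb markers within groups, where treatment, genotype and sex do not vary. The slope is the change in log2 level for each unit of the mean log2 bulb marker value, fitted with 12 group means. It was below 0 and called for 27 of the 30 genes and above 0 and called for 1, Slc17a6, while 54.8% of all genes had a called slope (28.7% lower, 26.1% higher). The steepest was that of Syt2 at -0.22 ± 0.043 (SE), followed by Rims1 at -0.16 ± 0.026, Rph3a at -0.15 ± 0.033 and Sv2b at -0.15 ± 0.028. Slc17a6 had a slope of 0.082 ± 0.015. The 2 genes with no called slope were Cplx1 (-0.011 ± 0.012) and Sv2a (-0.0074 ± 0.0068), which were also among the 4 not called between treatments. In females alone 26 slopes were called, 26 lower (46.8% of all genes), and in males alone 25, of which 24 were lower (26.8% of all genes).

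**Figure D2:**
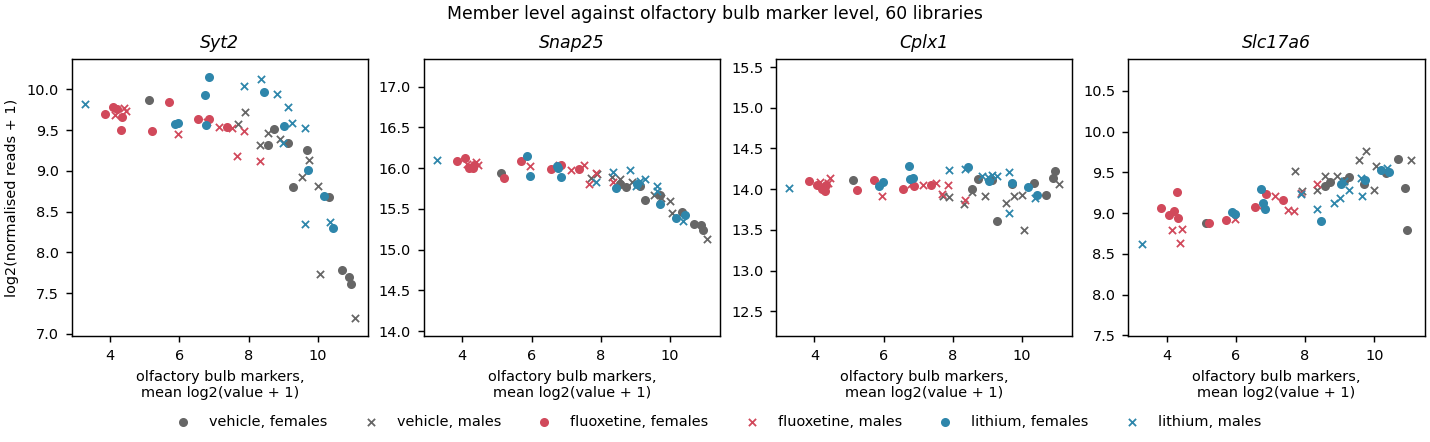
Log2(normalised reads + 1) of Syt2, Snap25, Cplx1 and Slc17a6 against the mean log2 value of 7 olfactory bulb markers in 60 libraries (circles females, crosses males; colour gives the treatment; each panel spans the same height). Syt2 and Snap25 were lower where bulb markers were high, Slc17a6 was higher there, and Cplx1 was nearly level.

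With the mean bulb marker value and its linear counterpart as covariates, 0 of the 30 genes were called between fluoxetine and vehicle in WT females, as were 0.0225% of all genes. At an unadjusted p below 0.05 limma gave 9, each with the sign below 0, against 9.97% of all genes, and the median log2 fold change was -0.10, with 28 of 30 below 0. The share below 0 depends on the linear covariate. With the mean log2 bulb value alone 0 were called (0.00562% of all genes) and 0 passed unadjusted (5.62% of all genes). The median was then -0.014 and 12 of 30 lay above 0. With both covariates Sv2b came to -0.16 ± 0.078 (log2 ± SE), Rims1 to -0.23 ± 0.10, Snap25 to 0.0077 ± 0.059, Vamp1 to 0.068 ± 0.089 and Slc17a6 to -0.022 ± 0.12. Slc17a7 had the smallest unadjusted p, with -0.17 (SE 0.056, limma adjusted p = 0.261). The bulb markers of WT vehicle and WT fluoxetine females do not overlap, so this fit carries the slope across a range that holds no library of either group. Striatum and choroid plexus markers as covariates left 0 of the 30 called (0.0731% of all genes). The mean log2 choroid plexus value of these groups did not overlap either, at 5.05 to 6.07 under vehicle and 3.94 to 4.35 under fluoxetine. That fit has the same limit for this covariate, while the striatum values overlapped (7.70 to 7.97 and 7.62 to 7.83). Without covariates, edgeR called 25 of the 30 (40.7% of all genes) and DESeq2 26 (41.8%).

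**Figure D3:**
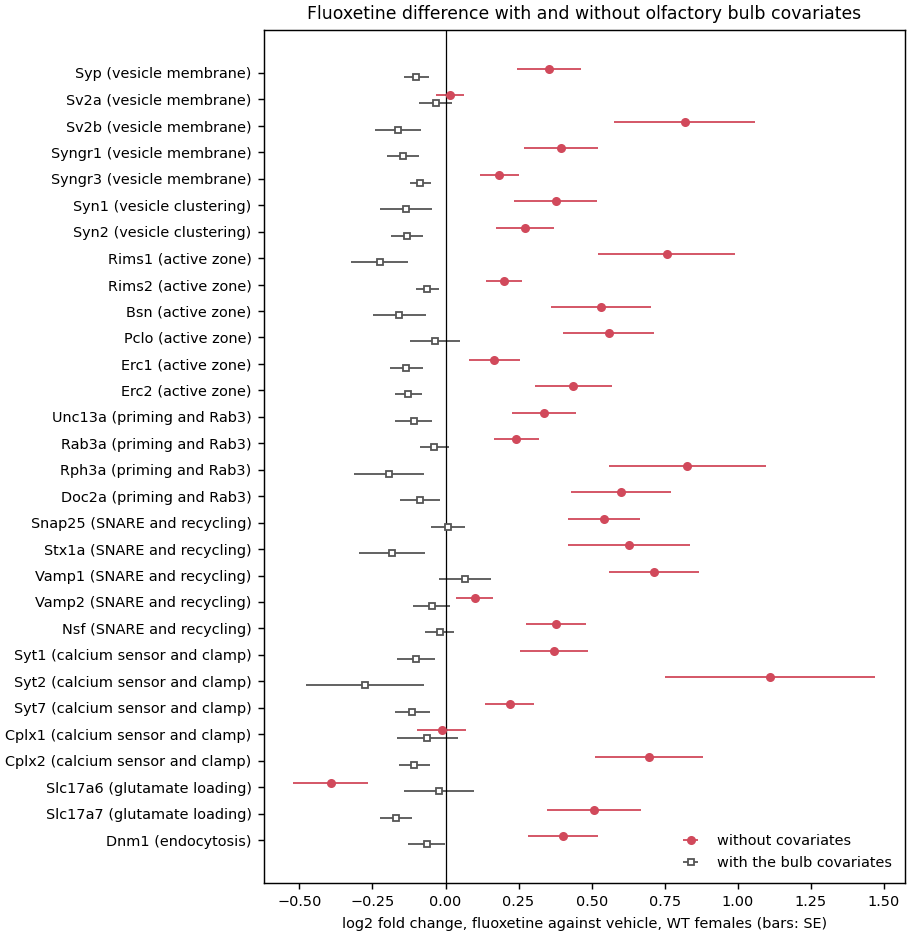
Log2 fold change of each of the 30 genes, fluoxetine against vehicle in WT females, without covariates (filled circles) and with both bulb covariates (open squares); bars are SE. Without covariates 28 of 30 points lay above 0, and with both covariates 28 of 30 lay below 0, whereas with the log2 bulb mean alone, not drawn, 12 of 30 lay above 0.

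In HT females 0 of the 30 genes were called between fluoxetine and vehicle by limma, as were 0% of all genes, 13 had an unadjusted p below 0.05 (22.9% of all genes), and edgeR and DESeq2 also called 0 (0% and 2.36% of all genes). The signs were alike, with 29 of 30 log2 fold changes above 0 and a median of 0.26 (25 and 0.12 after quantile normalization). Vamp1 read 1309, 1734, 2248, 2567 and 2317 under vehicle and 2719, 2568, 2762, 2678 and 2595 under fluoxetine. It was the only gene of the 30 with groups apart, as 1.63% of all genes were in that direction, by a margin of under 1 normalised read. Its log2 fold change was 0.43 (SE 0.15, limma adjusted p = 0.161). Snap25 read 38760.0, 49926, 57016, 62817 and 55592 under vehicle and 65271, 67071, 69868, 60136 and 65554 under fluoxetine. Replicate 4 of the vehicle group fell inside the fluoxetine range, and the log2 fold change was 0.33 (SE 0.12, limma adjusted p = 0.166). Syt2 read 195, 447, 639.6, 932 and 731 under vehicle and 798, 795, 827, 717 and 864 under fluoxetine, with replicate 4 again the highest vehicle library and replicate 1 the lowest. The bulb markers of the HT vehicle females spanned 5.13 to 10.95 (mean log2), with replicate 4 lowest and replicate 1 highest. Without replicate 4 limma called 1 of the 30 (5.78% of all genes). Once bulb covariates were added, 0 of 30 were called, with 0% of all genes called, and the median was -0.014. At an unadjusted p below 0.05 there were 0 of 30, against 5.49% of all genes. The difference in the fluoxetine response between genotypes was called for 0 of 30 (0 at an unadjusted p below 0.05; edgeR and DESeq2 0; 0% of all genes), with a median of -0.15 (-0.043 after quantile normalization). Of all genes, 2.86% had an unadjusted p below 0.05 for this difference. It was called for 15 of the 30, all lower, when libraries were weighted by quality (15.5% of all genes).

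Under lithium 0 of the 30 genes were called in WT females (1 at an unadjusted p below 0.05, Vamp1; edgeR and DESeq2 0; 0.00562% of all genes called) and 0 in HT females (1 unadjusted, Syn2; edgeR and DESeq2 0; 0.0169% of all genes called). The median log2 fold changes were 0.17 and 0.16, above 0 for 29 of 30 genes in each genotype (0.078 and 0.083, for 25 and 24 genes, after quantile normalization). Vamp1 read 1690.1, 2577, 1741, 2265 and 2518 in WT lithium females, below all WT fluoxetine females and overlapping with vehicle. Its log2 fold change from vehicle was 0.33 (SE 0.15, limma adjusted p = 0.429). Syt2 spread most, at 314, 1136, 412, 747 and 754, and its log2 fold change was 0.70 (SE 0.36, limma adjusted p = 0.442). Replicates 1 and 3, the low libraries for Syt2, were the WT lithium females with the highest bulb markers (10.4 and 10.2, mean log2). Replicate 2, the highest for Syt2 and Vamp1, was the only WT lithium female with a mean log2 striatum marker value above 9 (10.15). With library quality weights 16 of the 30 genes were called in WT females, all higher (18.5% of all genes). Adding the bulb covariates left 0 called in WT (4 unadjusted; 0.0619% of all genes) and 0 in HT females (1 unadjusted; 0.0225% of all genes), with medians of -0.063 and -0.00019. Of all genes, 9.95% in WT and 7.46% in HT females had an unadjusted p below 0.05 with both covariates. With the log2 bulb mean alone the medians of the 30 were above 0, at 0.063 (28 of 30 above 0) and 0.078 (26 of 30), with 0 called and 0 unadjusted in each. In that fit 6.10% and 5.81% of all genes passed unadjusted. The lithium response differed between genotypes for 0 of the 30 (0 unadjusted, edgeR and DESeq2 0, 0% of all genes called). An unadjusted p below 0.05 was reached by 2.14% of all genes.

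Genotype was compared within each treatment. Between HT and WT vehicle females 0 of the 30 genes were called (1 unadjusted; edgeR and DESeq2 0; 0% of all genes). Over all genes 7.58% had an unadjusted p below 0.05. The median log2 fold change of the 30 was 0.14, with 27 of 30 above 0 (0.040 and 23 after quantile normalization). The gene with an unadjusted p below 0.05 was Slc17a6, at 441, 695, 644, 468 and 667 in HT vehicle females against 721, 806, 635, 672 and 655 in WT. The groups overlapped, and the log2 fold change was -0.28 (SE 0.13, limma adjusted p = 0.613). Weighting libraries by quality called 20 of the 30 here, all higher (29.0% of all genes). Under fluoxetine 0 were called (0 unadjusted, edgeR and DESeq2 0, 0% of all genes), and the 30 log2 fold changes ran from -0.065 to 0.058. Under lithium 0 were called (0 unadjusted, edgeR and DESeq2 0, 0% of all genes), with a median of 0.12 and 27 of 30 above 0 (0.037 and 21 after quantile normalization). Without covariates 1.82% of all genes under fluoxetine and 10.6% under lithium had an unadjusted p below 0.05. The range of the 30 log2 fold changes was wider under vehicle (-0.28 to 0.47) and lithium (-0.19 to 0.37) in females. In males the range was -0.13 to 0.19 under fluoxetine and -0.059 to 0.10 under lithium. The mean log2 bulb marker value of WT and HT females was 5.16 and 5.34 under fluoxetine, 10.1 and 8.53 under vehicle, and 8.66 and 7.35 under lithium. Its part in these ranges was not tested. With the bulb covariates 0 were called between genotypes under vehicle (12 unadjusted, with 30 of 30 below 0 and a median of -0.11; 0% of all genes). At that unadjusted p 6.64% of all genes passed. With the log2 bulb mean alone 0 were called (0 unadjusted, against 2.66% of all genes). Of the 30, 18 lay above 0 and the median was 0.010, so the sign of the median depends on the linear covariate. Under fluoxetine 0 were called (0 unadjusted; 0.0169% of all genes) and under lithium 0 (2 unadjusted; 0% of all genes). The interactions with fluoxetine and lithium had 0 called each (1 and 2 unadjusted, with 0% and 0% of all genes called). Of all genes, 3.69% passed at that unadjusted p between genotypes under fluoxetine and 9.41% under lithium. In the interactions with fluoxetine and lithium 3.48% and 4.94% did.

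The other presynaptic genes give the setting. Of the 50, 29 were higher and 8 lower in WT females under fluoxetine (39.8% of all genes called), with a median log2 fold change of 0.24. With the bulb covariates 0 of the 50 were called (11 unadjusted, against 9.97% of all genes). In HT females 0 were called as well (23 unadjusted, against 22.9% of all genes). The 4 with the smallest p in WT females without covariates were all lower. Slc18a2, which loads monoamines into vesicles, read 96.4, 100, 80.7, 34.3 and 42.9 under vehicle and 4.79, 4.97, 6.04, 5.98 and 12.6 under fluoxetine, a log2 fold change of -3.14 (SE 0.51, limma adjusted p = 0.000161). Slc32a1, which loads GABA and glycine, read 4028, 3798, 6150.3, 2969 and 3333 under vehicle and 2095, 1952, 1878, 2234 and 2259 under fluoxetine, a log2 fold change of -0.92 (SE 0.18, limma adjusted p = 0.000561). Both genes were apart in every library, as were Syt6, a synaptotagmin outside the fast-release group, at -2.05 (SE 0.40, limma adjusted p = 0.000410) and Rab3b, a Rab3 paralog, at -0.77 (SE 0.16, limma adjusted p = 0.000708). These 4 had bulb slopes above 0, at 0.44 ± 0.04, 0.13 ± 0.02, 0.38 ± 0.023 and 0.11 ± 0.018 (SE) in the same order, opposite in sign to 27 of the 30 release genes. They do not stand for their list. Of the 50, 36 had a called slope below 0 and 9 above 0, with a median of -0.052 (28.7% and 26.1% of all genes). Transmitter loaders stood on both sides, Slc17a7 higher and Slc17a6, Slc32a1 and Slc18a2 lower under fluoxetine.

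A shift common to all genes cancels in a ratio, but a difference in bulb content need not, since bulb slopes differed within some pairs. They were -0.15 for Sv2b and -0.0074 for Sv2a, 0.082 for Slc17a6 and -0.11 for Slc17a7, and alike for Syn1 (-0.079) and Syn2 (-0.066). The part of the bulb markers in the ratios was not tested. The 9 paralog pairs were compared as log2 ratios of their values within each female library. An exact two-sided permutation test was used in 7 comparisons, and its smallest possible p is 0.00794. After adjustment over 63 tests that p stays above 0.05 unless enough tests share it, however large a shift is. None of the 63 tests passed adjustment, which for that reason does not show unchanged ratios. The smallest adjusted p of the permutation test was 0.0556, 12 tests had an unadjusted p below 0.05, and 9 tests tied at the smallest p. Of those, 7 were fluoxetine against vehicle in WT females. The Sv2a/Sv2b ratio was 0.25 ± 0.43 under vehicle and -0.55 ± 0.085 under fluoxetine (SD, n = 5 each, exact permutation p = 0.00794). These ratios are not scaled by length, so their 0 does not mark equal levels of the 2 genes, and only their differences between groups are read. The Slc17a6/Slc17a7 ratio differed by -0.90, Syt1/Syt2 by -0.74, Cplx1/Cplx2 by -0.71 and Erc1/Erc2 by -0.27. Vamp1/Vamp2 differed by 0.61 and Rims1/Rims2 by 0.56. In each of these 7 pairs the 2 groups of ratios did not overlap. The share of other gene pairs with ratios apart was not computed, so this is not read as a trait of the paralogs. In HT females the ratios of Sv2a/Sv2b (-0.48) and Vamp1/Vamp2 (0.30) did not overlap between fluoxetine and vehicle. The synapsin and synaptogyrin pairs kept overlapping ratios in all 7 comparisons. Leaving out replicate 4 of the HT vehicle females brought 13 of the 63 tests below an adjusted p of 0.05, and leaving out any other library brought 0. Such a count moves with the number of tests that share the smallest p.

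In males, where the vehicle libraries stand apart, 25 of the 30 genes were higher and 1 lower under fluoxetine in WT (58.0% of all genes called), and 9 higher and 1 lower in HT (41.4% of all genes). Under lithium 20 were higher and 2 lower in WT (48.2% of all genes), and 3 higher and 1 lower in HT (36.9% of all genes). Leaving out 1 library moved the HT counts to between 5 and 11 (fluoxetine; 5 without vehicle replicate 2, with 37.5% of all genes) and between 3 and 9 (lithium; 9 without lithium replicate 1, with 36.7% of all genes). Between HT and WT males 0 were called under vehicle (23 unadjusted, as were 23.3% of all genes; median 0.27; edgeR 0; 0% of all genes called), under fluoxetine (0 unadjusted; edgeR 0; 0%) and under lithium (0 unadjusted; edgeR 0; 0%). Of all genes, 2.60% under fluoxetine and 1.90% under lithium had an unadjusted p below 0.05 between genotypes. In males the fit with both bulb covariates called 13 higher and 3 lower under fluoxetine in WT (45.8% of all genes) and 15 and 2 in HT (48.3%). Under lithium it called 17 and 4 in WT (50.6%) and 18 and 3 in HT (48.5%). The log2 bulb mean alone gave other counts: 10 higher and 2 lower under fluoxetine in WT (41.0%), 3 and 2 in HT (41.0%), 20 and 2 under lithium in WT (49.1%) and 5 and 2 in HT (41.4%). With both covariates 0 were called between genotypes under vehicle (0 unadjusted, 0% of all genes called), fluoxetine (1 unadjusted, 0.00562%) and lithium (0 unadjusted, 0.00562%). At an unadjusted p below 0.05, 3.89%, 4.99% and 3.87% of all genes passed in the same order.

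Sv2a and Syngr3 were called higher in all 4 male drug comparisons without covariates, with both and with the log2 bulb mean alone. Sv2a, not called in females, read 12384, 11734, 12297, 12891 and 11860.1 in WT and 12584, 12350.1, 12263, 12744 and 12321 in HT vehicle males. The highest of these 10 lay below the lowest of the other 50 libraries (13059.5 to 16652), females included. With the bulb covariates its log2 fold change from vehicle was 0.24 ± 0.052 and 0.27 ± 0.047 (SE) for fluoxetine and lithium in WT males. Syngr3 read 3013 to 4011 in WT and 3662 to 4272 in HT vehicle males, below all 20 treated males (4293 to 5346). The share of all genes set apart in these 2 ways was not computed. Within a genotype such separation was common. Of all genes, 19.6% (WT) and 17.1% (HT) lay wholly above vehicle under fluoxetine, and 14.9% and 11.5% under lithium. Rims2 went the other way, at 3723, 3351, 3487, 3060.3 and 3768 in WT and 3758, 3540.2, 4035, 3859.7 and 4139 in HT vehicle males. WT fluoxetine males read 3070.3, 3342, 3031, 3138 and 3389 and HT fluoxetine males 3124, 3546, 3256, 3136 and 3166, overlapping with vehicle in both genotypes. Rims2, with the bulb covariates, was called lower under fluoxetine, at -0.33 ± 0.036 in WT and -0.32 ± 0.032 in HT males (log2 ± SE). Without them it was called lower in HT males under both drugs and in WT males under lithium. Erc2 was lower as well in all 4 male drug comparisons with both covariates, from -0.23 (fluoxetine, WT) to -0.10 (lithium, HT). With the log2 bulb mean alone Erc2 was called in 1 of the 4, fluoxetine in HT (-0.25), and its value under lithium in WT was 0.027. Slc17a6 was lower under fluoxetine in WT males, 698, 765, 864, 802 and 804 against 526, 441, 520.2, 548 and 394. The groups of this gene were apart, as were those of 19.9% of all genes in that direction. Its log2 fold change was -0.70 (SE 0.13, limma adjusted p = 6.56e-06), and -0.43 (SE 0.11, limma adjusted p = 0.00107) with the bulb covariates. The difference between the sexes in these responses was not tested, since in males treatment cannot be told apart from the separation of the vehicle libraries.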

How the data were processed

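RNA was sequenced from 60 prefrontal cortex samples, 5 in each of 12 groups. The authors deposited a gene table whose unit is a signal, reads divided by a size factor, and every value was a whole number of reads (100% within 1e-06) once multiplied back. The submitters' processing notes name Salmon 0.11.2, DESeq2 1.19.11, R 3.6.0 and GRCm38 without their order. Because the deposited signal is normalised, limma 3.58.1 (R 4.3.3) was fitted with a mean-variance trend to log2(value + 1), with 12 group means, keeping a gene where 5 or more libraries reached a value of 10, adjusted by Benjamini-Hochberg at 0.05. Fold changes are on that scale. Alternatives were the count models of edgeR 4.0.16 and DESeq2 1.42.0 on recovered reads, other scalings, filters, pseudocounts, covariates, library weights and left-out libraries. Leaving out libraries rich in bulb or striatum markers, slopes within each sex, and male fits with the log2 bulb mean alone were added after seeing the data. Libraries of 1 group differed by more than counting noise in every pair (chi-square per degree of freedom at least 3.11). The genes named are all 30, in full where called in a female comparison, plus the 4 other presynaptic genes with the smallest p. The 30 genes and all lists were chosen with earlier results of these data known. Gene positions are those of GENCODE on GRCm38; promoter stretches are RefSeq's. On simulated data limma, its slope on 1 covariate and edgeR were tested. That covariate was drawn independently of the groups, unlike the bulb markers. DESeq2, the fit with both bulb covariates and the permutation test were not simulated.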

Additional observations from a re-analysis of the deposited data

Results flagged for a closer look

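Among the 360 sets of 5 values (30 genes in 12 groups), 22 had a library set apart from the other 4 by Dixon's test at the 95% level, where chance gives about 1 in 20, or 18. All 22 were the lowest of their group. In HT vehicle males replicate 2 was set apart for Cplx2 (20229), Rab3a (12866), Rph3a (10696), Snap25 (49440.3), Sv2b (13342.5) and Syp (33217). In HT lithium males replicate 1 was set apart for Doc2a (1047), Rab3a (13549), Syngr1 (16357), Syp (33206) and Syt1 (35722). WT males gave Cplx1 (15789) and Snap25 (57378) in fluoxetine replicate 3, and Cplx1 (13347) and Erc1 (2317) in lithium replicate 3. HT fluoxetine males gave Erc1 (2459) and Sv2a (13783) in replicate 1. Among HT females the libraries set apart were vehicle replicate 1 for Erc2 (3161) and Syn2 (11723), lithium replicate 2 for Cplx2 (23980.3) and Vamp1 (1680.34), and fluoxetine replicate 4 for Nsf (25578). Each of these libraries had the highest mean log2 bulb marker value of its group, except WT lithium male replicate 3 and HT fluoxetine female replicate 4. The part of the bulb markers in these low values was not tested.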

How the results depend on the processing

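The count of 26 genes called under fluoxetine in WT females fell to 0 with the bulb covariates, with the log2 bulb mean alone and with striatum and choroid plexus covariates. Without a single library it was 10 to 27, in HT females 0 to 1, in HT males 5 to 11 under fluoxetine and 3 to 9 under lithium. The paralog tests passing adjustment were 0 to 13. With the bulb covariates males had 16 called under fluoxetine in WT, 17 in HT and 21 under lithium in HT, and with the log2 bulb mean alone, added after seeing the data for males, 12, 5 and 7 in the same order. Library quality weights called 20 genes between HT and WT vehicle females, 15 in the interaction with fluoxetine and 16 under lithium in WT females. The other 382 counts computed under these alternatives stayed within 1.5 times the reported count.

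With both bulb covariates the log2 fold change under fluoxetine in WT females changed sign in 26 of the 30 genes (18 with the log2 bulb mean alone). Among genes called without covariates these were Bsn (-0.16), Cplx2 (-0.11), Dnm1 (-0.064), Doc2a (-0.087), Erc2 (-0.13), Nsf (-0.020), Pclo (-0.035), Rab3a (-0.039), Rims1 (-0.23), Rims2 (-0.062), Rph3a (-0.19), Slc17a7 (-0.17), Stx1a (-0.18), Sv2b (-0.16), Syn1 (-0.14), Syn2 (-0.13), Syngr1 (-0.15), Syngr3 (-0.086), Syp (-0.10), Syt1 (-0.10), Syt2 (-0.28), Syt7 (-0.11) and Unc13a (-0.11). In males the sign changed in 8 genes under fluoxetine and 4 under lithium in WT, and in 7 and 3 in HT. Those called without covariates were, in WT under fluoxetine, Erc1 (-0.020), Erc2 (-0.23), Rims1 (-0.10), Sv2b (-0.028), Syt1 (-0.11) and Syt2 (-0.040), under lithium Erc2 (-0.14), and in HT 0 genes. The cause was not tested.

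Libraries with the same replicate number did not deviate together in all 5 pairs of any comparison (correlations -0.39 to 0.46), so the numbers were not taken to pair the mice. With the replicate block 26 genes were called under fluoxetine in WT females, 9 in HT males, 23 under lithium in WT males and 4 in HT males. Depth did not limit these genes, the lowest group mean being 415 normalised reads (Syt2 in WT vehicle males), and 5 mice a group with no litter label limit the precision.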
